A study of Mus musculus with 34 samples.

Results

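The interferon-response genes described here are 9 genes that interferon induces in mouse cells: Rsad2, Ifit1, Ifit3, Isg15, Irf7, Oasl2, Usp18, Ifi44 and Rtp4. They were chosen by name, with earlier results of these data known, and Rsad2 is read against the other members. Of the 9, 7 had probe sets of their own on the array, 10 probe sets in all, among 18193 genes with a probe set of their own. Isg15 shared its probe set with Gm9706 in the platform annotation, so no level is given for it, and the signal of Ifi44 was not analysed here. A gene was tested when its brightest probe set reached a signal of 100 on at least 2 arrays, which 12723 genes did. Of the members, 6 passed (Rsad2, Ifit3, Irf7, Oasl2, Usp18 and Rtp4), and Ifit1 was too dim to be tested.

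Total RNA from whole, unsorted and untreated mouse fetal livers was hybridised to 34 one-colour Affymetrix arrays. The fetuses lacked different combinations of Rb1, p107 (encoded by Rbl1) and p130 (encoded by Rbl2), and the labels place every array at embryonic day 14.5 while the series text allows day 13.5 as well. Without Rb1 there were 22 arrays: 6 from the triple knockout (Rb1;p107;p130 TKO), 5 from Rb1;p107 DKO, 9 from Rb1;p130 DKO and 2 from Rb1 KO. With Rb1 there were 12: 6 from p107;p130 DKO, 3 from p130 KO, 1 from p107 KO and 2 from wild type. The labels name no strain, allele or Cre driver and do not say how many animals gave each sample.

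Interferons are secreted proteins that cells release on sensing viral nucleic acid. Type I interferons bind the receptor pair Ifnar1 and Ifnar2, the kinases Jak1 and Tyk2 attached to it pass the signal on, and transcription factors that include Irf9 act on a promoter element read as paired GAAA repeats. Proteins of the RB family bind E2F transcription factors and restrain cell division. Fetal liver is the main blood-forming organ at this stage and most of its cells are red cell precursors.

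The Rb1 and Rbl1 signals followed the labels on every array, and the Rbl2 signals did not separate fully. Rb1 signal ran from 756.0 to 1745.9 on the arrays without Rb1, against 5208.2 to 9085.4 on the arrays with it. Rbl1 was at most 139.4 in each genotype lacking p107 and at least 1185.0 in each other genotype, whereas the signal of Rbl2 overlapped, at up to 265.4 without p130 and down to 246.2 with it. The arrays fell into 3 groups of 15, 10 and 9 when clustered on the ratio of paired probe sets of the same gene. Such array groups rest on the signals alone, are no recorded batch and are unevenly spread over genotypes: 7 of the 22 arrays without Rb1 and 2 of the 12 with Rb1 lay in the third. Xist marked 17 arrays and Y-linked genes the other 17.

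Before the levels, the promoters of 3 members are shown, because they carry the paired GAAA element named above and let the gene that changed be set beside 2 that are known to answer interferon together. The motif searched was GAAA, any 2 bases and GAAA again, on both strands, in windows of 250 bases before to 50 bases after the start that the promoter table takes for each gene (RefSeq, GRCm38.p6). That start is the outer end of the annotated gene for Rsad2 and Ifit1, and lies 410 bases inside it for Ifit3, 75 for Irf7 and 8 for Oasl2. It was found in 3.44% of 32851 promoters. Of the members, 7 had a promoter in the table and 4 held the motif: Rsad2 1 match, Ifit1 2, Ifit3 2 and Isg15 3 that overlap each other. Irf7, Oasl2 and Ifi44 had no match to these letters in this window. Capitals mark the matches, which lie on the strand opposite to the one printed. The Rsad2 window is chr12:26456403-26456702 (minus strand), the Ifit1 window chr19:34640639-34640938 (plus strand) and the Ifit3 window chr19:34583279-34583578 (plus strand).
Rsad2: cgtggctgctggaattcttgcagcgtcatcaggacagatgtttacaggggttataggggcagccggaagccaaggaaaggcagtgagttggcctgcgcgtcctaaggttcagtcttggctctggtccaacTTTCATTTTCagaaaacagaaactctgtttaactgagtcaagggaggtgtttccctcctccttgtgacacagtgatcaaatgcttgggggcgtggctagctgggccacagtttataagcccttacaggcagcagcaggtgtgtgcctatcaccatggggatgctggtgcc
Ifit1: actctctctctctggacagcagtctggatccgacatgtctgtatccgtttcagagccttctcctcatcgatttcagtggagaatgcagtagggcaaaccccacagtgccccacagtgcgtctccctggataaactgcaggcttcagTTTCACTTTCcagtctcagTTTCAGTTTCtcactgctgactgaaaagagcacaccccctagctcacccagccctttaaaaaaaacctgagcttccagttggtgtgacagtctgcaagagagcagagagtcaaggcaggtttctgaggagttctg
Ifit3: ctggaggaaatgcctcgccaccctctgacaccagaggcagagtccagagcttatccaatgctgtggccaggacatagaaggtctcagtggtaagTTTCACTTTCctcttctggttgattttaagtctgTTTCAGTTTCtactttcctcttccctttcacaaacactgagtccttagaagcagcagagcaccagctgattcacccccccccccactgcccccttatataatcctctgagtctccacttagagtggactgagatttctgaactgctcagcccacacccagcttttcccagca
The Rsad2 match begins 120 bases before this start, the Ifit1 matches begin 104 and 85 bases before it, and the Ifit3 matches 156 and 122 bases before it. A match is a description of these letters and was not tested against binding or the signals.

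Rsad2, which encodes viperin, an enzyme whose human form makes a chain-terminating nucleotide that stops viral RNA synthesis, was lower without Rb1. No other member passed the test in any comparison as designed, and with array weights Rtp4 did in 2. Rsad2 lies on chromosome 12 from 26442743 to 26456452 (GRCm38.p6, minus strand) and had 3 probe sets, of which the brightest, 1436058_at, is used unless another is named. Its signal was 495.3, 591.7, 416.7, 1990.9, 527.1 and 955.3 on TKO arrays 1 to 6. The Rb1;p107 DKO arrays gave 755.6, 2116.0, 1568.8, 1257.6 and 1206.3. Array 4 was the one TKO array above 1000, and the Rb1;p107 DKO arrays lay mostly above the TKO arrays, with overlap.

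In Rb1;p130 DKO livers the Rsad2 signal was 2005.0, 1729.5, 1552.7, 1620.6 and 1765.8 on arrays 1 to 5. It was 467.7, 654.1, 1383.9 and 514.3 on arrays 6 to 9. Arrays 1 to 5 belong to the first array group and arrays 6 to 9 to the third, and the ranges of these subsets did not overlap. Rb1 KO livers gave 761.1 and 2663.2, the second of these within the range of the arrays with Rb1.

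Among genotypes that keep Rb1, p107;p130 DKO livers had Rsad2 signals of 1687.7, 1865.1, 1988.9, 2847.3, 2342.5 and 4455.0. The p130 KO arrays gave 1325.9, 4203.4 and 2719.9, the p107 KO array 2503.4, and the wild-type arrays 1462.7 and 3557.3. No array with Rb1 was below 1325.9, while 12 of the 22 arrays without Rb1 were. By mean signal the order from the lowest was TKO (829.5 ± 599.1, SD, n = 6), Rb1;p130 DKO (1299.3 ± 591.5, n = 9), Rb1;p107 DKO (1380.9 ± 503.1, n = 5) and Rb1 KO (1712.2 ± 1345.0, n = 2). Above them came p107 KO at 2503.4 (n = 1), wild type (2510.0 ± 1481.1, n = 2), p107;p130 DKO (2531.1 ± 1028.2, n = 6) and p130 KO (2749.7 ± 1439.0, n = 3). On this probe set all 4 means without Rb1 lay below all 4 means with it, and on the other 2 they did not. On 1421009_at Rb1 KO averaged 673.5 against 612.0 on the p107 KO array. On 1421008_at Rb1 KO (657.3) and Rb1;p130 DKO (419.1) both exceeded the p107 KO array (391.4), and Rb1 KO exceeded wild type (514.8) and p107;p130 DKO (655.9) as well. Neighbours in this order overlapped, and of the neighbouring pairs that were tested none passed: TKO against Rb1;p130 DKO, Rb1;p107 DKO against Rb1;p130 DKO, and p107;p130 DKO against p130 KO.

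**Figure D1:**
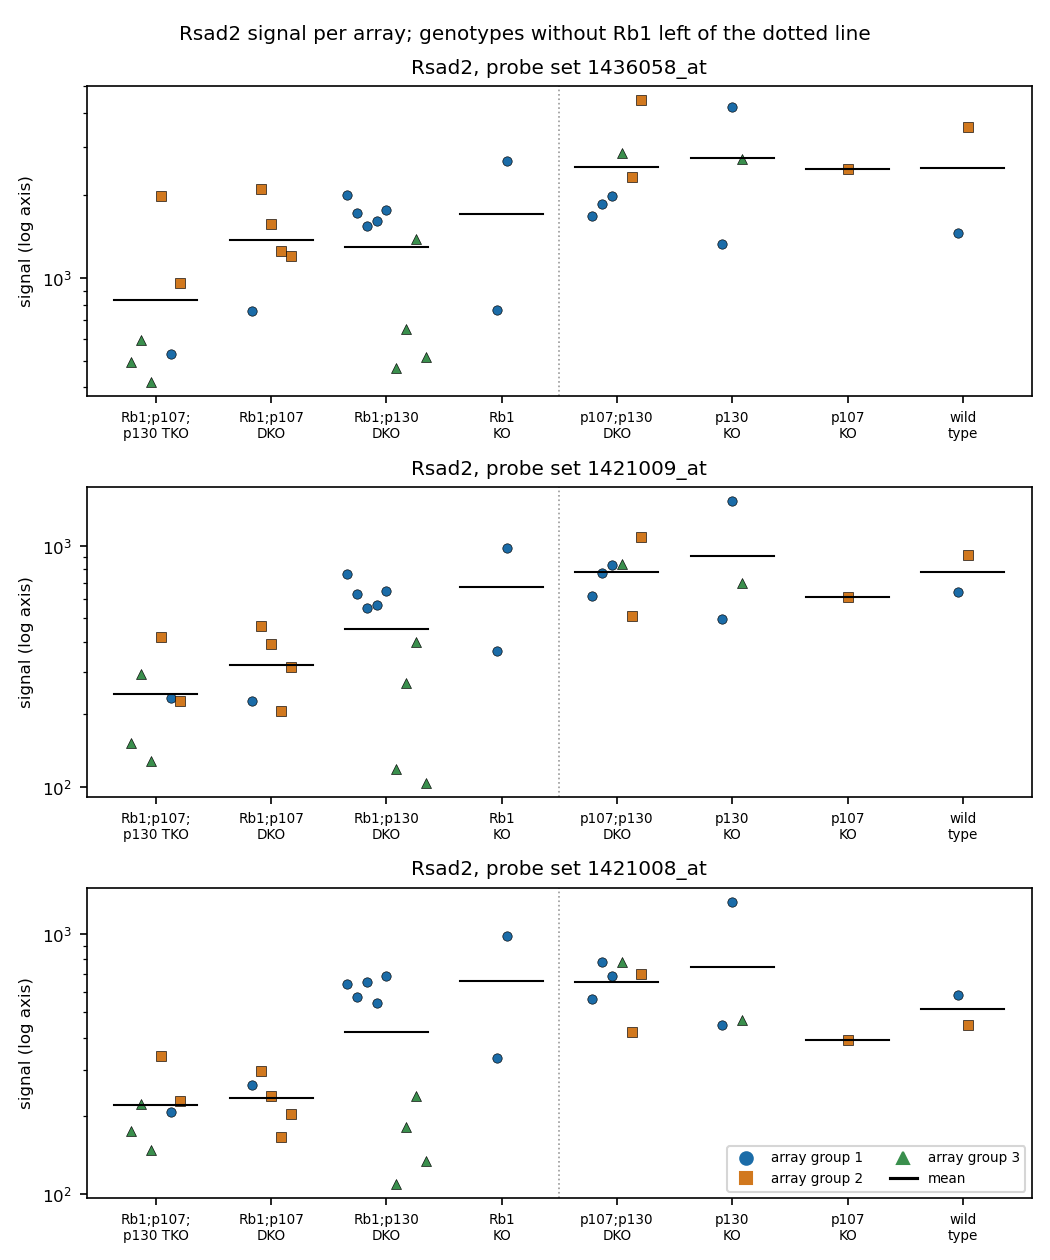
Rsad2 signal (log axis) on each of the 34 arrays for its 3 probe sets, by genotype, with genotypes without Rb1 on the left; colour and shape give the array group and bars the mean. On the brightest probe set the TKO arrays sit between 416.7 and 1990.9 and the p107;p130 DKO arrays between 1687.7 and 4455.0.

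With loss of p107 and p130 in the model, the Rsad2 signal fell by 1.20 on the log2 scale with Rb1 loss over all backgrounds (SE 0.24, 95% interval -1.69 to -0.71, limma adjusted p = 0.0018), 2.30-fold lower on the log2(signal + 32) scale. It was below the mean of the arrays with Rb1 on 21 of 22 arrays without Rb1. In this comparison 1 of the 6 members tested was called lower, at an adjusted p under 0.05, beside 0.511% of all genes (65 lower, 223 higher), and its change ranked 4 of 12723 from the lowest, where Rb1 itself was lowest. The other Rsad2 probe sets gave -1.18 ± 0.23 (SE, limma adjusted p = 0.00095, 1421009_at) and -0.996 ± 0.23 (SE, limma adjusted p = 0.0075, 1421008_at). Their signals followed the brightest one over the 34 arrays at r = 0.91 and 0.80, as 3 readings of the same RNA.

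The direction was the same in each array group and the size was not. The groups hold different genotypes: all arrays of group 3 lack p130, and group 2 has no Rb1;p130 DKO, p130 KO or Rb1 KO array. Size by array group and size by genotype can therefore not be fully told apart. With array group as a block the Rsad2 change was -1.05 ± 0.20 (SE, limma adjusted p = 0.00079). Within array group 1 it was -0.67 ± 0.28 (SE, 9 arrays without Rb1 and 6 with, limma adjusted p = 0.356), within array group 2 -0.99 ± 0.26 (6 and 4 arrays, limma adjusted p = 0.0882) and within array group 3 -2.18 ± 0.33 (7 and 2 arrays, limma adjusted p = 0.0585). Mean signals in these groups were 1486.7 without Rb1 against 2089.0 with Rb1 in the first, 1515.8 against 3214.6 in the second and 646.2 against 2783.6 in the third. The call was therefore made over all arrays and with the block, and in no single array group. Leaving out any 1 of the 34 arrays kept the call (limma adjusted p = 0.00061 to 0.0064).

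**Figure D2:**
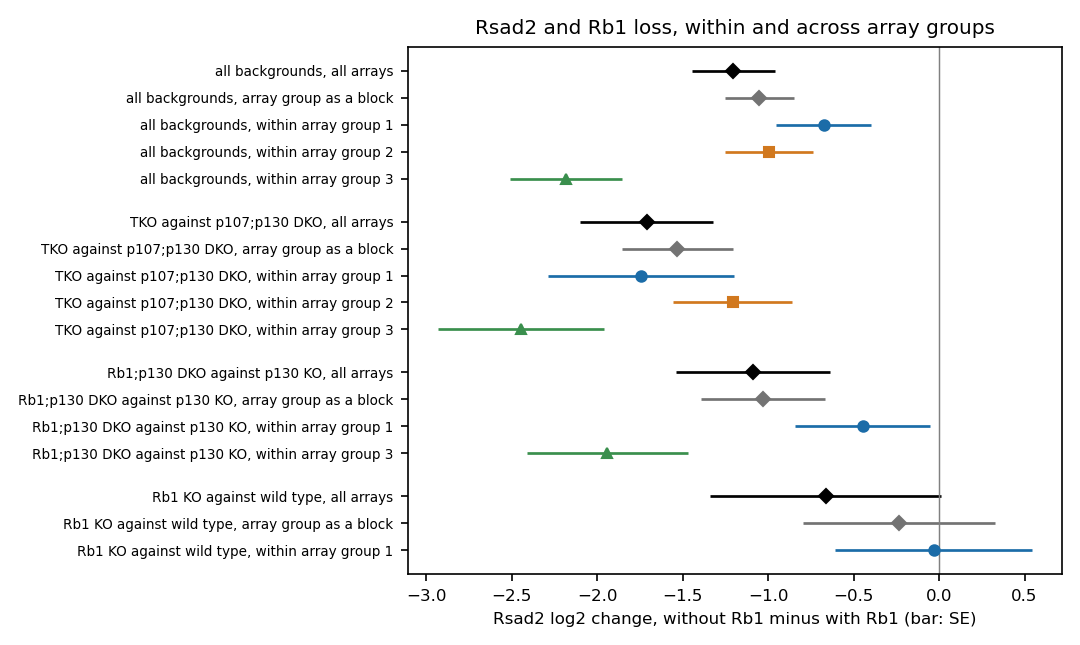
Log2 change of Rsad2, without Rb1 minus with Rb1 (point) and its SE (bar), over all arrays, with array group as a block and within each array group that holds both sides, for 4 comparisons. Over all backgrounds the within-group values run from -0.67 in group 1 to -2.18 in group 3, all on the same side of 0. In the single backgrounds a side can hold 1 array within an array group.

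The same loss was read in single genetic backgrounds. Where p107 and p130 were both absent, TKO livers had less Rsad2 signal than p107;p130 DKO livers, by -1.71 ± 0.39 (SE, 95% interval -2.50 to -0.92, limma adjusted p = 0.0373), 3.27-fold. Of the 6 TKO arrays, 5 lay below the lowest p107;p130 DKO array, and array 4 was the exception. This was 1 of 6 members called lower, beside 0.0786% of all genes. A two-sided exact permutation test gave p = 0.0087. On probe set 1421009_at the TKO arrays spanned 128.3 to 417.1, with a median of 229.5, against 508.7 to 1086.5, with a median of 800.7, in p107;p130 DKO. On 1421008_at they spanned 147.8 to 341.0, with a median of 214.5, against 419.9 to 780.7, with a median of 697.5. These ranges did not overlap, and the exact permutation p was 0.0022 for both, the smallest that 6 against 6 arrays can give.

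The call in this background was near its threshold. It was lost on leaving out any one of TKO arrays 1, 2, 3 and 5 or of p107;p130 DKO arrays 2 to 6, at values of -1.53 to -1.78 (limma adjusted p = 0.0548 to 0.113). On probe set 1421008_at the value was -1.46 (limma adjusted p = 0.0518). Within array groups 1, 2 and 3 it was -1.75 (1 TKO array against 3), -1.21 (2 against 2) and -2.45 (3 against 1). It was not called in group 2, and groups 1 and 3 each rest on a single array on 1 side. The sexes were uneven, with Xist on 4 of 6 TKO arrays and 1 of 6 p107;p130 DKO arrays, and the value with sex as a covariate was -1.84 (limma adjusted p = 0.0410).

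Where p130 alone was absent, Rsad2 in Rb1;p130 DKO livers was -1.09 ± 0.45 relative to p130 KO livers (SE, 95% interval -2.004 to -0.17, limma adjusted p = 0.859), with 9 of 9 arrays below the p130 KO mean. No member was called there, beside 0.118% of all genes, and the exact permutation p was 0.0636. The value was -0.45 within array group 1 (5 arrays against 2) and -1.94 within array group 3 (4 arrays against 1). Rb1 KO livers, where both other genes are kept, gave -0.66 ± 0.68 relative to wild type (SE, limma adjusted p = 0.9999), 0 members called beside 0.00786% of all genes, and 2 arrays against 2 cannot give a permutation p below 0.333. That value turned to 0.22 without Rb1 KO array 1 and to 0.17 on probe set 1421008_at, and was -0.33 on 1421009_at. The Rb1 effect with p107 absent minus that with p107 present, both without p130, was -0.62 ± 0.60 (SE, 95% interval -1.83 to 0.59, limma adjusted p = 0.9995), so a difference in the Rb1 effect between these backgrounds was not shown. By limma 0 of all genes were called for this term, and 209 had an unadjusted p under 0.05.

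Loss of the other family members was not followed by a called change in Rsad2. Over all backgrounds it was -0.25 ± 0.23 for p107 loss (SE, limma adjusted p = 0.607) and -0.35 ± 0.25 for p130 loss (SE, limma adjusted p = 0.640). The 95% intervals were -0.72 to 0.22 and -0.86 to 0.17. On probe sets 1421008_at and 1421009_at the p107 value was -0.45 on both (95% intervals -0.89 to -0.02 and -0.89 to -0.01, limma adjusted p = 0.274 and 0.280), and the p130 value 0.05 and -0.18. With array group as a block the p107 value was -0.58 (limma adjusted p = 0.242) and the p130 value 0.20. No member was called for either, beside 1.14% and 0.0157% of all genes. TKO against Rb1;p107 DKO gave -0.86 (limma adjusted p = 0.660) and TKO against Rb1;p130 DKO -0.67 (limma adjusted p = 0.888), beside 0.00786% and 0.0236% of all genes called. The first of these was -0.09 on probe set 1421008_at, -0.39 on 1421009_at and -0.19 with array group as a block, where 4 of the 5 Rb1;p107 DKO arrays lie in the second array group. TKO against Rb1;p130 DKO was -1.65 within array group 1 (1 array against 5) and -0.44 within array group 3 (3 arrays against 4). Rb1;p107 DKO against Rb1;p130 DKO gave 0.18 (limma adjusted p = 0.835, 0.267% of all genes called), which was -0.74 with array group as a block. TKO against wild type gave -1.65 ± 0.55 (SE, limma adjusted p = 0.605, 0.0786% of all genes called), and p107;p130 DKO against p130 KO -0.05 (limma adjusted p = 0.999, 0.0236% of all genes called). No member was called in these last 5 comparisons.

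The other members were read in the order of their roles. Irf7, the transcription factor that amplifies type I interferon production, had a signal of 84.7 to 352.4 over the 34 arrays. It was 231.9 to 290.6 (median 251.7) in TKO and 130.2 to 335.5 (median 239.0) in p107;p130 DKO, 168.5 and 84.7 in wild type, and the TKO values lay inside the p107;p130 DKO range. Over the 22 arrays without Rb1 the Irf7 median was 251.7 (133.3 to 352.4), against 227.8 (84.7 to 335.5) over the 12 with Rb1. Its change with Rb1 loss was 0.19 ± 0.13 (SE, limma adjusted p = 0.680).

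Usp18, the protease that takes Isg15 off its targets and dampens receptor signalling, showed 266.2 to 689.3 (median 364.9) without Rb1 and 213.6 to 529.1 (median 359.4) with Rb1, and these ranges largely coincided. Its change with Rb1 loss was 0.13 ± 0.11 (SE, limma adjusted p = 0.730). Rtp4, a chaperone of G protein-coupled receptors that interferon induces, showed 111.2 to 782.9 (median 269.5) without Rb1 and 134.2 to 468.1 (median 301.2) with Rb1. The Rtp4 change was 0.19 ± 0.18 (SE, limma adjusted p = 0.792). Its other probe set, 1449143_at, did not exceed 62.9 on any array.

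The antiviral effectors other than Rsad2 were dim. Ifit3, which belongs to the family of proteins that bind foreign viral RNA, reached 100 on 15 of 34 arrays. Its range was 5.1 to 212.9 (median 90.0) without Rb1 and 13.0 to 133.4 (median 105.7) with Rb1. Oasl2, an oligoadenylate synthetase-like protein, reached 100 on 6 arrays, with 1.6 to 150.6 (median 34.9) without Rb1 and 2.0 to 120.4 (median 86.9) with Rb1. Ifit1, which binds viral RNA that lacks cap methylation, reached 100 on 1 array only, the p107 KO array at 100.3, and spanned 3.4 to 78.6 (median 38.5) without Rb1 and 2.1 to 100.3 (median 43.6) with Rb1. The changes with Rb1 loss were -0.01 ± 0.22 for Ifit3 (SE, limma adjusted p = 0.991) and -0.39 ± 0.23 for Oasl2 (SE, limma adjusted p = 0.580), and Ifit1 was not tested. No detection calls were used, so signals under 100 are close to what an unexpressed gene can give.

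**Figure D3:**
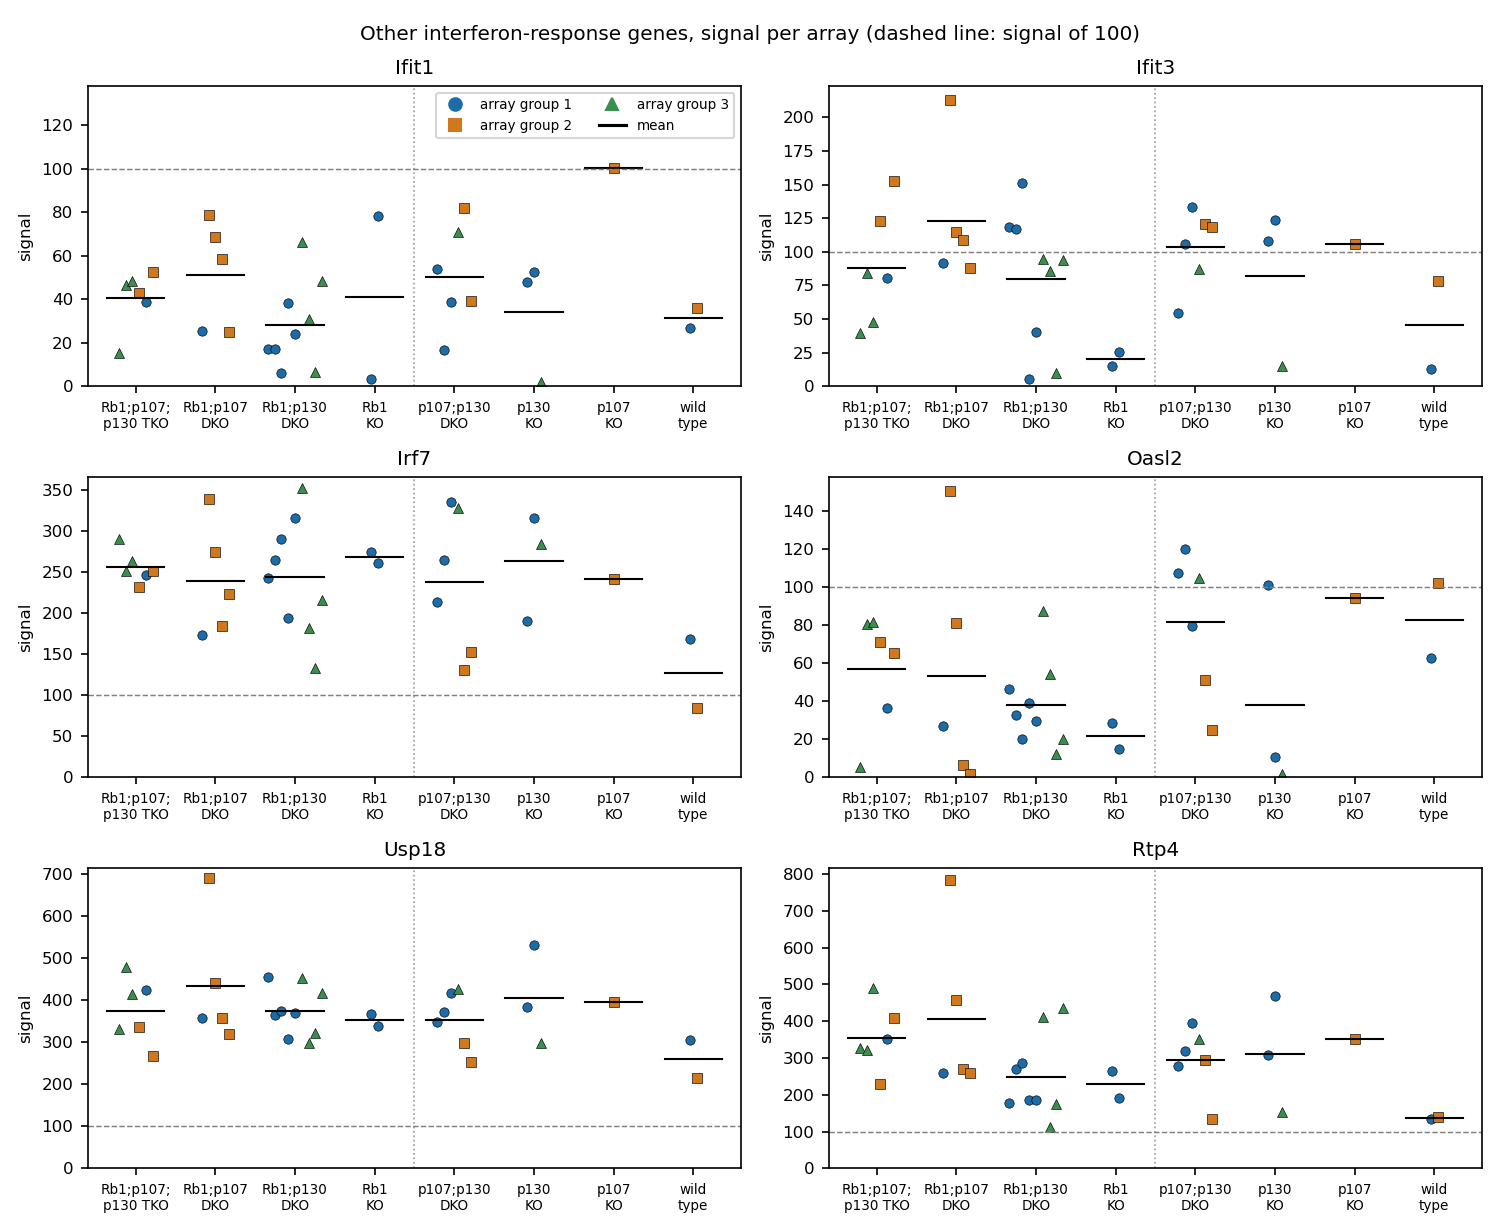
Signal per array (linear axis) of the 6 other measured members by genotype, with genotypes without Rb1 on the left of the dotted line; colour and shape give the array group, bars the mean and the dashed line a signal of 100. Ifit1 reaches 100 on 1 array and Ifit3 on 15, and in each panel the genotypes overlap on both sides of the dotted line.

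The interval of the Rb1 change was -0.08 to 0.46 for Irf7, -0.08 to 0.35 for Usp18, -0.17 to 0.54 for Rtp4, -0.47 to 0.44 for Ifit3 and -0.86 to 0.08 for Oasl2 (95%). None of the 5 reached as low as the Rsad2 value of -1.20, though the interval of the dim gene Oasl2 overlapped that of Rsad2 (-1.69 to -0.71). In TKO against p107;p130 DKO their changes ran from -0.37 (Oasl2) to 0.27 (Rtp4), none called (lowest limma adjusted p = 0.987). The per-array difference between Rsad2 and each other gene was also tested for Rb1 loss. Rsad2 changed by -1.39 relative to Irf7, -1.33 relative to Usp18, -1.39 relative to Rtp4, -1.19 relative to Ifit3 and -0.81 relative to Oasl2, with limma adjusted p = 0.00901 or lower. Each such difference holds the same Rsad2 values, which limma treats as independent, so these p-values can be too small. Of all other genes, 99.8% passed this test, so the difference is with nearly every gene measured and not with the other members in particular.

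**Figure D4:**
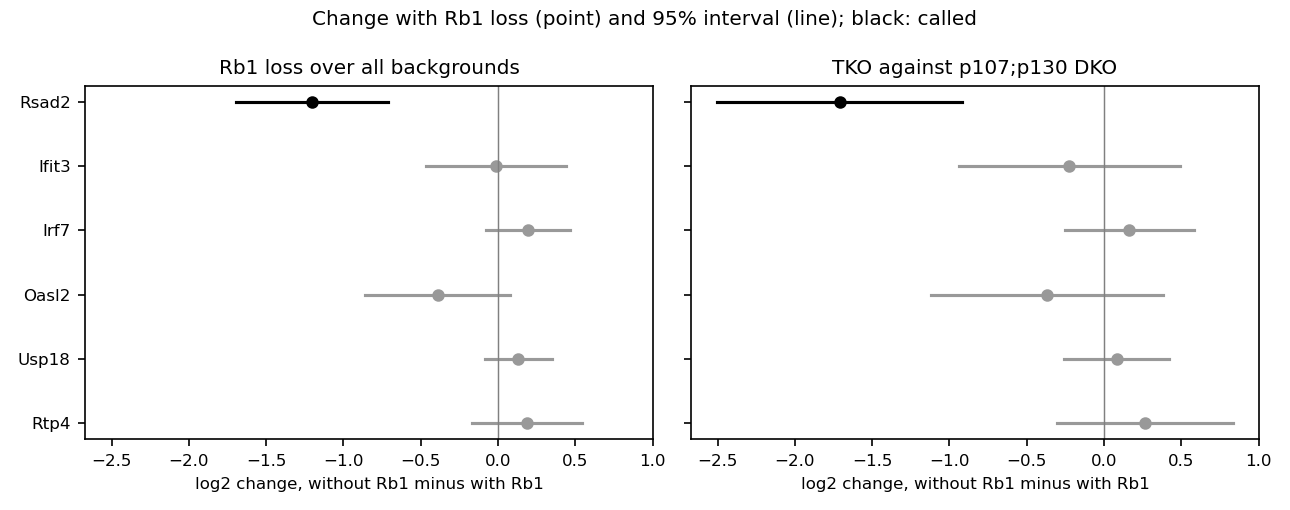
Log2 change (point) and 95% interval (line) of the 6 members tested, without Rb1 minus with Rb1, for Rb1 loss over all backgrounds and for TKO against p107;p130 DKO. Black marks the called values, -1.20 and -1.71 for Rsad2; the intervals of the other 5 include 0.

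Outside Rb1 loss, Rtp4 and Ifit3 had their lowest adjusted p with p107 loss. Rtp4 averaged 354.9 ± 88.5 in TKO and 249.0 ± 112.2 in Rb1;p130 DKO livers (SD, n = 6 and 9). It averaged 295.5 ± 89.0 in p107;p130 DKO and 310.4 ± 157.0 in p130 KO livers (SD, n = 6 and 3). The single p107 KO array had 350.6, against 134.2 and 140.5 in wild type. The fitted p107 effects were 0.51 ± 0.17 for Rtp4 (SE, limma adjusted p = 0.119) and 0.59 ± 0.21 for Ifit3 (SE, limma adjusted p = 0.159), neither called. With array weights, Rtp4 reached 0.60 with p107 loss (limma adjusted p = 0.0384) and 0.75 in Rb1;p107 DKO against Rb1;p130 DKO (limma adjusted p = 0.0221).

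Irf7 and Rtp4 had low signals on the 2 wild-type arrays, and Oasl2 did not. TKO against wild type gave 0.91 ± 0.29 for Irf7 (SE, limma adjusted p = 0.553) and 1.16 ± 0.39 for Rtp4 (SE, limma adjusted p = 0.611). For Oasl2 it gave -0.44 ± 0.52 (SE). With 2 wild-type arrays none of these passed the test, beside 0.0786% of all genes called. For Rsad2 the same 2 arrays were far apart, one near the low end and one in the upper part of the range with Rb1.

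The rest of the interferon pathway was read from 9 lists of 132 gene names, and 90 genes were tested. A few genes stand there under both an older and a newer name. With Rb1 loss, 1 was called higher and 1 lower, beside 1.75% of all genes called higher and 0.511% lower. The median change of the 90 was -0.01, against -0.02 for all genes tested. Among ligands, 2 of 11 genes were tested, the type I ligands Ifna1 and Ifna5, and none was called. The other type I ligands Ifnb1, Ifna2 and Ifna4 and the type II ligand Ifng failed the filter, with Ifnb1 at 7.34 to 100.4 without Rb1 and 18.1 to 88.9 with Rb1. All 5 receptor chains tested, including Ifnar1 (-0.06 ± 0.08, SE) and Ifnar2 (0.29 ± 0.10, SE, limma adjusted p = 0.145), and all 5 signal transduction genes tested were uncalled. So were 36 of 36 other interferon-induced effectors, at a median of 0.02, and 17 of 17 genes of interferon gamma response and antigen presentation, at a median of -0.08.

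The genes called in these lists are named here, though so few calls among 90 genes are near the share over all genes. Mavs, the mitochondrial adaptor of the RNA sensors, had a signal of 783.5 to 3339.1 (median 1919.9) without Rb1 and 1954.5 to 3980.0 (median 2766.8) with Rb1. It fell by 0.56 on the log2 scale with Rb1 loss (SE 0.14, limma adjusted p = 0.0254). Socs3, a suppressor of cytokine receptor signalling, had 528.1 to 1314.8 (median 842.1) without Rb1 and 490.5 to 902.6 (median 640.6) with Rb1, and rose by 0.39 (SE 0.10, limma adjusted p = 0.0297). For both genes the ranges overlapped. Ube2l6, the enzyme that passes Isg15 to its ligases, fell by 0.31 with p107 loss (SE 0.08, limma adjusted p = 0.0366), where it was the 1 gene of the 90 called, beside 0.723% of all genes called lower.

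Cmpk2, a mitochondrial nucleotide kinase that is interferon-induced too, is the neighbour of Rsad2 on chromosome 12, with a gap of 12.665 kb and 0 genes of the annotation between them. Its signal was 102.5 to 460.7 (median 300.2) without Rb1 and 177.0 to 539.2 (median 281.1) with Rb1. The Cmpk2 change was -0.16 ± 0.16 (SE, limma adjusted p = 0.818), not called. Relative to Cmpk2, Rsad2 changed by -1.05 ± 0.30 (SE, limma adjusted p = 0.00056, which can be too small as for the members). Of all other genes, 99.8% passed this test, so the difference is not particular to Cmpk2.

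Correlations over the 34 arrays are given as a description, since arrays share genotype and array group, and differences between them were not tested. Rsad2 correlated with the 5 other members tested at r = -0.25 (Rtp4) to 0.13 (Ifit3), on log2 signals. Among themselves those 5 correlated at 0.05 (Irf7 and Oasl2) to 0.73 (Usp18 and Rtp4), so these ranges overlapped, and Irf7 and Usp18 stood at 0.68. With genotype and array group removed, Rsad2 correlated with the 5 at -0.20 (Rtp4) to 0.21 (Irf7). Among themselves the 5 then correlated at 0.27 (Irf7 and Oasl2) to 0.73 (Usp18 and Rtp4), and the ranges did not overlap. The 5 genes most like the mean of these members were Parp12 (r = 0.68), Dtx3l (0.64), Ifitm3 (0.63), Parp9 (0.62) and Irgm1 (0.62), and 5 of 5 stand on the interferon lists, which hold 0.708% of the 12717 genes compared. Ifitm3 blocks virus entry and Parp9 and Dtx3l form a complex that interferon induces.

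The 5 genes most like Rsad2 were Nt5c3 (r = 0.86), Tmcc2 (0.85), Xpo7 (0.82), Tfdp2 (0.80) and Ube2h (0.80), and 0 of 5 stand on the interferon lists, a count that says little at that share. Nt5c3 encodes a pyrimidine nucleotidase known for its place in red cell maturation, and its human counterpart is also interferon-induced. Xpo7 is a nuclear transport receptor and Ube2h a ubiquitin-conjugating enzyme, both known from late red cell maturation, and Tfdp2 is a dimer partner of E2F proteins. After genotype and array group were removed, these 5 correlations were 0.61 to 0.73. With Rb1 loss Xpo7 fell by 0.68 on the log2 scale (SE 0.09), Ube2h by 0.59 (SE 0.10) and Tmcc2 by 0.35 (SE 0.09, limma adjusted p = 0.021), all called by limma, while Nt5c3 (-0.21, limma adjusted p = 0.109) and Tfdp2 (-0.22, limma adjusted p = 0.373) were not.

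**Figure D5:**
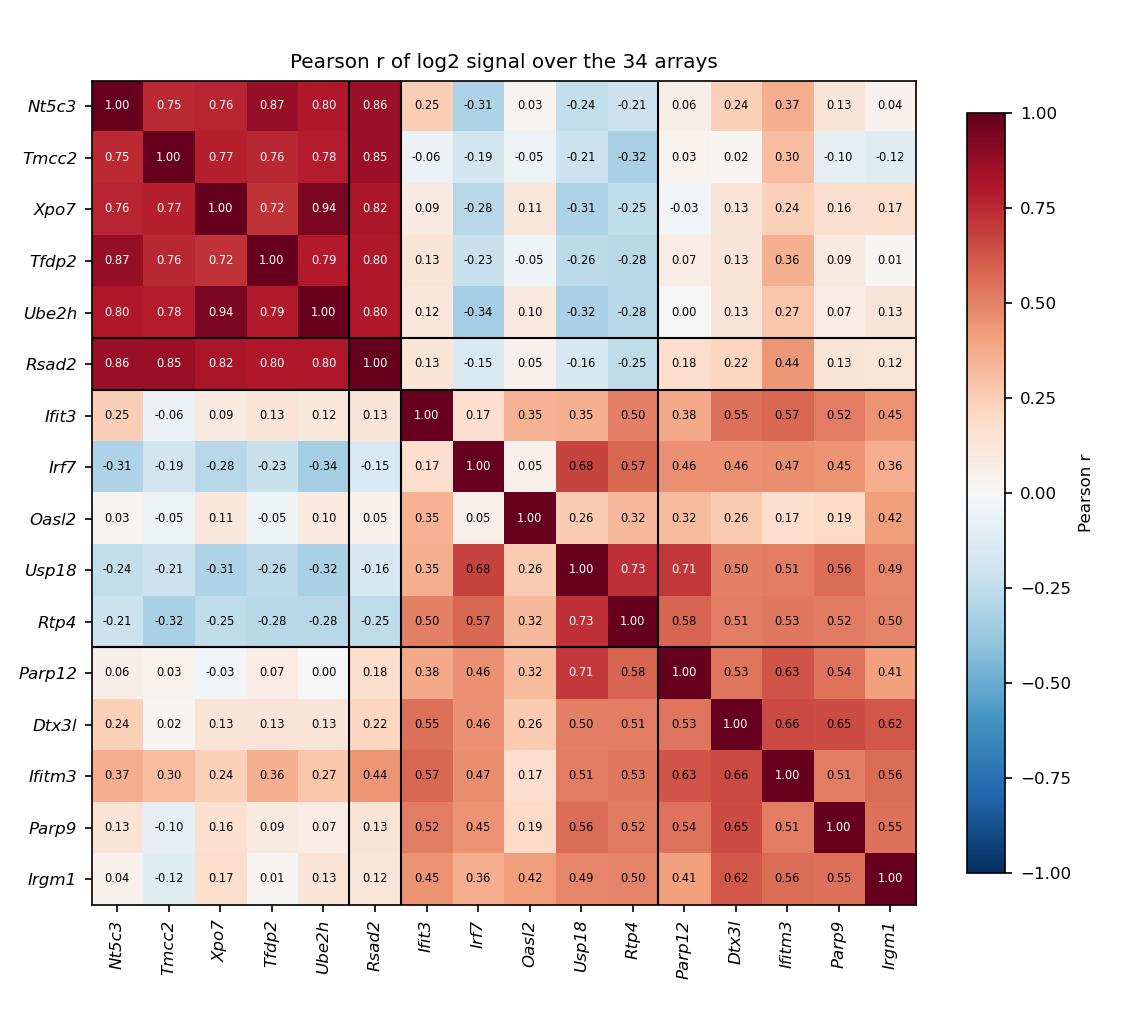
Pearson r of log2 signal over the 34 arrays between Rsad2, the 5 genes most like it (top left), the 5 other members tested and the 5 genes most like their mean (bottom right). Rsad2 reaches 0.80 to 0.86 with the first set and -0.25 to 0.13 with the other members.

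In whole tissue, fewer cells of a type and less RNA per cell cannot be told apart. Markers of the cell types a fetal liver holds are given here for that reason. None of the 8 erythroid markers tested was called in any comparison. Their summed signal, with Hba-a1 not passing the filter, was 123077 to 194778 without Rb1 and 117122 to 185559 with Rb1. Probe sets that matched several genes were not used, so a marker that fails the filter is not shown to be low in these livers. None of the 12 macrophage markers was called either, at a summed signal of 8683 to 14561 without Rb1 and 10153 to 17355 with Rb1. The plasmacytoid dendritic marker Siglech and the dendritic marker Xcr1 failed the filter. Over all 10 marker lists the 1 gene called was Pdgfrb of stellate cells. On the log2 scale it was higher by 0.67 with p107 loss and by 0.87 in Rb1;p107 DKO against Rb1;p130 DKO. In these 2 comparisons 1.14% and 0.267% of all genes were called. With Rb1 loss 1.75% of all genes were called higher and 0.511% lower, so 0 calls in lists this short say little. The part of red cell maturation in the Rsad2 change was not tested.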

How the data were processed

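RNA was measured on 34 arrays of fetal liver from 8 genotypes. The deposited intensity values are probe set signals on a linear scale, which the authors made with MAS5 in GCOS 1.4, per the submitters' processing notes. The file held 45037 probe sets, of which 34945 matched 1 gene symbol in the platform annotation, 932 several (not used) and 9160 none. No column was without a sample.

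Signals were scaled to a 2% trimmed mean of 500 (deposited trimmed means were 495.4 to 497.7) and taken as log2(signal + 32). The probe set of highest mean signal stood for each gene, and genes at 100 or more on at least 2 arrays were tested. limma 3.58.1 in R 4.3.3 was used (lmFit, contrasts.fit, eBayes with trend, two-sided). The additive model took Rb1, p107 and p130 loss as terms, and a fit with 1 mean per genotype gave 9 further contrasts. Calls were made at an adjusted p under 0.05 (Benjamini-Hochberg, over all genes tested). The difference between Rsad2 and each other gene was fitted per array with the additive model, without the trend. The p107 KO group has 1 array.

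Whether replicate arrays are separate animals is not in the labels, so p-values reflect no more than the spread among these samples. For arrays, their number limits the precision. The members and lists were chosen with earlier results of these data known. Genes named are the members on every probe set, the 5 genes with the highest Pearson r with Rsad2 and with the mean of the other members tested, called genes of the pathway lists, Cmpk2 and the targeted genes; Pdgfrb is named outside this rule, after its values were seen.

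Array groups came from average-linkage clustering into 3 groups, a number that was set, on log2 differences between the 2 brightest probe sets of 2996 genes (median signal 300 or more). Alternatives tried were a pseudocount of 1 or 100, no filter, a filter of 200 on at least 6 arrays, a mean over a gene's probe sets, quantile normalization, no variance trend, array weights, only the genotypes compared, the replicate number, array group or sex in the model, each array group alone, and leaving out each array or Rb1;p130 DKO arrays 8 and 9. The steps were tested on simulated data. For Rb1 loss over all backgrounds, 95 of 100 genes with a simulated log2 change of 1 were recovered, and 71 of 100 at 0.5. For TKO against p107;p130 DKO these were 77 and 25 of 100, so an uncalled value there does not show that a change of 0.5 is absent. Coordinates and promoter sequences are from RefSeq (GRCm38.p6).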

Additional observations from a re-analysis of the deposited data

Results flagged for a closer look

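Of 40 groups of 4 to 10 arrays examined, 3 held an array far from the rest of its group, and chance alone gives about 1 in 20. Ifit1 was at a signal of 15.2 on TKO array 1, with the other 5 TKO arrays at 38.8 to 52.7, all under a signal of 100. Ifit3 was at 212.9 on Rb1;p107 DKO array 2, with the other 4 at 88.2 to 114.6. The same array had the highest signal of all 34 for Oasl2 (150.6), Usp18 (689.3) and Rtp4 (782.9). Rtp4 was at 134.8 on p107;p130 DKO array 6, with the other 5 at 279.1 to 394.5, and that array had the highest Rsad2 signal of all 34 (4455.0).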

How the results depend on the processing

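The Rsad2 call for Rb1 loss was kept under 14 of 17 alternatives and on leaving out each array, where values ran from -1.34 to -1.11 and the number of members called stayed at 1. The exceptions were the single array groups, with -0.67, -0.99 and -2.18 and 0 members called in each; each holds fewer arrays. In TKO against p107;p130 DKO the Rsad2 call was lost without the variance trend (-1.71, adjusted p = 0.0629), within array groups 1, 2 and 3 (-1.75, -1.21 and -2.45) and on probe set 1421008_at (-1.46), with 0 members called in each. On leaving out arrays the value ran from -2.0003 to -1.53, with 0 to 1 members called. The cause of the loss without the trend was not tested. The number of members called rose to 1 with array weights for p107 loss (Rtp4, 0.60) and for Rb1;p107 DKO against Rb1;p130 DKO (Rtp4, 0.75). All signs that turned were of uncalled values. For Rb1 loss, Ifit3 was 0.0015 with the replicate block, 0.083 with the array group block, 0.17 and 0.30 within array groups 2 and 3, 0.018 without Rb1;p130 DKO arrays 8 and 9, and -0.12 to 0.065 on leaving out arrays. Within array group 1 Usp18 was -0.028 and Rtp4 -0.17, and within array group 3 Irf7 was -0.33 and Oasl2 0.15. For TKO against p107;p130 DKO, Irf7 was -0.10 and -0.26 within array groups 1 and 3, Ifit3 0.16 and Oasl2 0.54 within array group 2, and Usp18 -0.072 within array group 3, -0.0049 with sex as a covariate and -0.0016 to 0.17 on leaving out arrays. Rsad2 turned for p130 loss with the array group block (0.20), within array groups 1 and 2 (0.39 and 0.045) and on 1421008_at (0.050). For Rb1 KO against wild type it was 0.17 on 1421008_at and -1.55 to 0.22 on leaving out arrays. For p107;p130 DKO against p130 KO it was 0.18 with array weights, 0.065 within array group 3 (1 array against 1), 0.17 with sex, and -0.49 to 0.33 on leaving out arrays. For Rb1;p107 DKO against Rb1;p130 DKO it was -0.21 with the mean of all probe sets, -0.10 with the replicate block and -0.74 with the array group block. Rsad2 in that comparison was -1.16 within array group 1 (1 array against 5), -0.54 on 1421008_at and -0.28 on 1421009_at. The reading of the other 2 Rsad2 probe sets was chosen after seeing the data. Over all genes, Rb1 loss called 240 to 337 on leaving out arrays, 560 with the array group block, 577 with array weights, and 188 and 4 within array groups 2 and 3. TKO against p107;p130 DKO called 28 to 71, 110 and 144 in the same settings, 3 and 0 within array groups 1 and 3, 31 with sex as a covariate and 80 with the replicate block. Whether replicate numbers pair the samples was not settled. Of pairs with the same number, 27 of 67 correlated above 0.1 (median r 0.07), against 76 of 380 with different numbers (median r -0.01). Of 30 arrays, 9 correlated best with an array of their own number. With the replicate block Rsad2 was -1.24 for Rb1 loss (adjusted p = 0.0012) and -1.71 for TKO against p107;p130 DKO (adjusted p = 0.011), and no Rsad2 call changed. Low signal limits Ifit1, Ifit3 and Oasl2.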

Other observations

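The 3 Rsad2 probe sets kept different ratios in the 3 array groups. The signal of 1436058_at over that of 1421008_at had a median of 2.87 (2.27 to 3.17) on the 15 arrays of group 1, 6.37 (4.199 to 7.95) on the 10 of group 2 and 3.66 (2.67 to 5.83) on the 9 of group 3. The ranges of groups 1 and 2 did not overlap. The brightest pair of Rsad2 probe sets entered the clustering that made these groups, so this is a description and not a test of them.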
